A study of Mus musculus with 4 samples.

Results

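The genes described here are 10 transcription factors of the striatum and of the lateral ganglionic eminence (LGE), the embryonic domain that gives rise to it: *Ebf1*, *Zfhx3*, *Meis1*, *Meis2*, *Pbx3*, *Foxp1*, *Isl1*, *Tshz1*, *Six3* and *Dach1*. They were chosen by gene name, 10 of the 56884 genes counted, because the genotype contrast of *Ebf1* and *Zfhx3* and the spread between libraries of several others had already been seen in these data. For those genes the differences between libraries are therefore a description, and no p is given for the genotype contrast of *Ebf1* or *Zfhx3*. The study removed *Dnmt1*, the DNA methyltransferase, from somatostatin-expressing (SST) interneurons of the mouse and sequenced RNA of single nuclei from the medial neocortex at embryonic day E16.5. Each genotype had 2 libraries, each library being nuclei of a single brain by the study's account. *Dnmt1* KO nuclei carried Sst-Cre/tdTomato/Dnmt1 loxP2 and control nuclei Sst-Cre/tdTomato, so that Cre and the tdTomato reporter were shared by both groups. Cre was driven by *Sst* in postmitotic cells, and the remaining cells of each brain kept *Dnmt1*. *Dnmt1* KO 1, *Dnmt1* KO 2 and control 1 were labelled batch 1, and control 2 was the sole library of batch 2.

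After barcodes of 1500 to 60000 transcripts were kept, 5640, 12064, 7047 and 4905 nuclei remained in KO 1, KO 2, control 1 and control 2, with medians of 12274, 12384, 12401 and 21140 transcripts, and no barcode was shared between libraries. Barcodes over 60000 transcripts, left out here, held 1.35%, 4.37%, 19.2% and 29.4% of the transcripts of these libraries, more in both controls than in both KO libraries, and control 2 had 2 sublibraries where the others had 8. The part of these differences in the results below was not tested. Values below are given in this order of libraries throughout. Nuclei with at least 2 transcripts of *Gad1* and *Gad2*, the enzymes that make GABA, were taken as GABAergic. These were divided by gates of at least 2 transcripts of 1 gene with the other 2 genes under 2: *Lhx6*, a factor of interneurons from the medial ganglionic eminence, *Adarb2*, a marker of interneurons from the caudal ganglionic eminence, and *Ebf1*. Nuclei with 0 transcripts of *Gad1* and *Gad2* and at least 2 of *Neurod2* and *Neurod6*, factors of glutamatergic neurons, were taken as excitatory. Levels are counts of a gene per 1000000 transcripts (CPM) of all nuclei of a population summed in a library. In such sums, fewer cells of a type and less RNA per cell cannot be told apart.

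Striatal projection neurons are GABAergic cells born in the LGE that stay in the basal forebrain, whereas cortical interneurons come from neighbouring eminences and migrate into the cortex. *Ebf1*, a helix-loop-helix factor, *Isl1*, a LIM homeodomain factor, and *Zfhx3*, a zinc finger homeodomain factor, act in the direct-pathway projection neurons, and *Six3*, a homeodomain factor, acts in the indirect-pathway ones that carry the dopamine receptor *Drd2*. *Meis1*, *Meis2* and *Pbx3* are TALE homeodomain proteins that bind DNA together, *Foxp1* is a forkhead repressor of striatal and of cortical projection neurons, *Tshz1* is a zinc finger factor of the dorsal LGE and its olfactory bulb progeny, and *Dach1* is a cofactor of the family of *Six3*. Several of them are also used outside the striatum, *Meis2* and *Foxp1* in cortical excitatory neurons and *Ebf1* in vessel wall and meningeal cells.

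In the GRCm39 assembly, the build named in the submitters' processing notes, *Ebf1* lies on chr11:44508138-44898918 of the plus strand, *Zfhx3* on chr8:108669276-109688262 of the plus strand and *Six3* on chr17:85920640-85936730 of the plus strand. Those of the other members given here lie on minus strands. *Meis1* is on chr11:18829817-18969749, *Meis2* on chr2:115693062-115896341, *Pbx3* on chr2:34061469-34263154, *Foxp1* on chr6:98902299-99499685, *Isl1* on chr13:116434817-116446235 and *Dach1* on chr14:98024289-98407201. Each is a protein-coding gene, and nuclear transcripts can come from its exons as well as its introns. All but *Isl1* and *Tshz1* overlap an annotated gene of the opposite strand, and the sources used here do not state whether counting used strand, so that reads of these pairs cannot be told apart.

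RefSeq promoter sequences, from 250 bases before to 50 after a start site, were matched by symbol for 8 members and gave 11 promoters. The TALE partners *Meis1* and *Meis2* and the projection neuron factors *Isl1* and *Six3* are shown because their levels separate the libraries and gates below. They are written 5′ to 3′ in the strand of the gene with GRCm38.p6 positions, and capitals mark the Meis core TGACAG.
Meis1, chr11:19018920-19019219, minus strand: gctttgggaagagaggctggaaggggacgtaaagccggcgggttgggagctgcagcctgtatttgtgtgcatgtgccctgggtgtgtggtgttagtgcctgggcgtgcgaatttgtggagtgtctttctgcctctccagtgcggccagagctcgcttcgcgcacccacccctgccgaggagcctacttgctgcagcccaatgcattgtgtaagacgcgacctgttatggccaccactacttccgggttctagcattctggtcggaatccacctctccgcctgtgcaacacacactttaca
Meis2, chr2:116064570-116064869, minus strand: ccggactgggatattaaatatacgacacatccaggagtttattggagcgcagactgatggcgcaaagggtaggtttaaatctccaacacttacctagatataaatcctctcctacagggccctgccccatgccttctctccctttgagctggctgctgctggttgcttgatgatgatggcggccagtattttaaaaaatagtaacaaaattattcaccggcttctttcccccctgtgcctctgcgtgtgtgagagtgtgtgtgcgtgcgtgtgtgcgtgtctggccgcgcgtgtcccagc
Isl1, chr13:116309639-116309938, minus strand: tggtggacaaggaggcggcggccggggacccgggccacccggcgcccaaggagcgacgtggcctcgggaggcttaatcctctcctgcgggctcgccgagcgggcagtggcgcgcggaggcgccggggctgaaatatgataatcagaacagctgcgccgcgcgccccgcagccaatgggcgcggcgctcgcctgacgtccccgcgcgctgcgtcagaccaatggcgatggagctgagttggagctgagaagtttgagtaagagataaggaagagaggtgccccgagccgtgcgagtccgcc
Six3, chr17:85620584-85620883, plus strand: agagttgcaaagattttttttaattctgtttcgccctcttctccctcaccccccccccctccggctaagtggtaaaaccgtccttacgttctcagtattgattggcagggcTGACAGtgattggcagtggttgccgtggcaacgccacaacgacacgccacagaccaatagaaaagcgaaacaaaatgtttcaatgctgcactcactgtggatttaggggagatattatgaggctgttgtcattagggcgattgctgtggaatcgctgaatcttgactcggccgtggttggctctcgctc
The *Six3* promoter held a single Meis core, which began 139 bases before the start site, and the other 3 promoters shown held none. Over both strands, 3 of the 11 member promoters held TGACAG (those of *Dach1*, *Foxp1* and *Six3*), as did 19.2% of 32851 mouse promoters of the same length. The homeodomain core TAATTA was found in 1 member promoter (5.29% of all promoters), the Ebf palindrome CCCNNGGG in 1 (13.7%) and the forkhead core TGTTTA in 3 (13.4%), all of them *Foxp1* promoters. A stretch could count for more than 1 motif, and a match is a description of letters, not a binding site.

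The libraries differed in how their GABAergic nuclei fell into the gates. There were 381, 1741, 1484 and 499 GABAergic nuclei, of which 212, 733, 449 and 341 were *Lhx6*-gated and 39, 429, 403 and 86 *Adarb2*-gated. *Ebf1*-gated nuclei numbered 2, 37, 60 and 2, or 0.525%, 2.13%, 4.04% and 0.401% of GABAergic nuclei. Their exact binomial 95% intervals were 0.0636% to 1.88%, 1.50% to 2.92%, 3.10% to 5.17% and 0.0486% to 1.44%, which cover counting error only. Control 1 and KO 2 thus held nearly all of the *Ebf1*-gated nuclei, and each genotype had a library with 2. The mean share was 1.33% ± 1.13 in *Dnmt1* KO and 2.22% ± 2.58 in control (SD, n = 2 libraries each). The difference of -0.90 percentage points was smaller than the SD in controls. With *Lhx6* and *Adarb2* disregarded, 3, 88, 209 and 8 nuclei had at least 2 *Ebf1* transcripts.

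**Figure D1:**
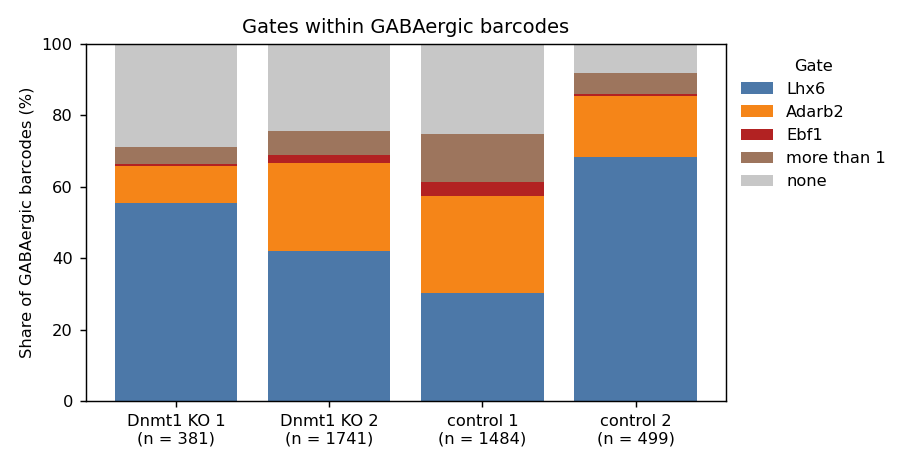
Share of GABAergic nuclei (percent, vertical axis) in each exclusive gate for the 4 libraries, with the number of GABAergic nuclei under each bar. The Ebf1 gate is widest in control 1 (4.04%) and KO 2 (2.13%), and the Lhx6 gate takes the largest part of control 2. The shares depend on depth, which is greatest in control 2.

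Other cell types also entered the *Ebf1* gate. Among *Ebf1*-gated nuclei, 0 of 2, 16 of 37, 2 of 60 and 0 of 2 carried at least 2 transcripts of endothelial, mural or meningeal markers, and the 4 endothelial markers summed to 0, 1754, 4.17 and 0 CPM. Markers of striatal projection neurons other than the members were found in 0 of 2, 7 of 37, 22 of 60 and 0 of 2, and the summed level of their 11 genes was 420, 262, 2374 and 105 CPM. In KO 2 the gate therefore went against a striatal label for many of its nuclei, and in KO 1 and control 2 it rested on 2 nuclei each. In all GABAergic nuclei the same 11 striatal genes summed to 353, 377, 1258 and 354 CPM, highest in control 1. Whether the dissection of control 1 took in striatal tissue was not tested, and it bears on each control mean and genotype fold change below. The part of vessel and meningeal nuclei in the results below was not tested, and levels without nuclei with striatal markers are given further on. *Dnmt1* itself stood at 63.9, 50.8, 65.9 and 55.5 CPM in GABAergic nuclei and at 71.1, 53.9, 77.6 and 93.6 CPM in the 1, 63, 8 and 6 GABAergic nuclei with at least 2 *Sst* transcripts, lower in both KO libraries only in the latter. With 1 nucleus in KO 1 and 8 and 6 in the controls, that order rests on few nuclei and is not read as a difference. Counts cover the whole gene and not the floxed part alone, so that they are a weak check of the labels.

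Nearly all the factors were highest in control 1, not in controls as a group. Of the direct-pathway factors, *Ebf1* was at 32.0, 191, 1548 and 56.4 CPM in GABAergic nuclei, with a Poisson 95% interval of 1531 to 1565 CPM in control 1. *Zfhx3* was at 81.1, 128, 574 and 31.2 CPM, and *Isl1* at 1.80, 3.48, 48.4 and 0.377 CPM. Control 1 was high for all 3 genes and control 2 was at or below the KO libraries for *Zfhx3* and *Isl1*, so the genotypes overlapped. *Ebf1* transcripts were found in 4.46%, 9.19%, 18.1% and 3.21% of GABAergic nuclei, against 7.71%, 7.13%, 8.26% and 6.64% of excitatory nuclei, and the shares of KO 1 and control 2 were not above those of their excitatory nuclei. *Isl1* transcripts were found in 1.05%, 1.15%, 14.9% and 0.401% of GABAergic nuclei and in at most 0.779% of excitatory nuclei.

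The TALE factors were highest in control 1 as well, with smaller steps. *Meis1* was at 38.7, 95.1, 267 and 44.3 CPM and *Meis2* at 587, 1125, 2812 and 781 CPM. *Pbx3* was at 218, 473, 835 and 294 CPM. For all 3, KO 1 was the lowest library, control 2 the next and KO 2 the next, with control 1 between 1.77 (*Pbx3*) and 2.81 (*Meis1*) times the level of KO 2. At least 2 transcripts of *Neurod2* and *Neurod6* were found in 11.5%, 14.1%, 16.0% and 21.8% of GABAergic nuclei, and without these mixed barcodes *Meis2* was at 400, 992, 2930 and 501 CPM, in the same order. Median transcripts per GABAergic nucleus were 11431, 10066, 10052 and 17564, and the part of depth in the shares of mixed barcodes was not tested. *Foxp1* was at 439, 538, 1177 and 433 CPM and *Six3* at 9.41, 3.65, 18.8 and 0.472 CPM, again highest in control 1. Unlike *Foxp1* and the TALE factors, *Six3* had KO 1 as its next library.

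The LGE factors *Tshz1* and *Dach1* stood apart from this order. *Tshz1* was at 83.5, 72.5, 97.5 and 119 CPM, the sole member for which both KO libraries were below both controls and the sole one highest in control 2. *Dach1* was at 277, 252, 401 and 101 CPM, with control 1 highest and control 2 lowest. Control 2 was at 52.7 CPM of *Dach1* with the mapped-read filter, and KO 1 at 155 CPM with nuclei gated after thinning, without a change in the highest or lowest library. In all, 9 of 10 members were highest in control 1, where 28.8% of 15243 genes were, and 6 of them by at least 2-fold over the next library. The spread of several members between libraries led to the choice, so such counts, here and in the populations below, are a description. The other batch 1 libraries, KO 1 and KO 2, were below control 1 for all 10. With every nucleus thinned to 5000 transcripts, *Ebf1* was detected in 1.90%, 6.38%, 16.0% and 1.77% and *Zfhx3* in 13.9%, 13.1%, 38.3% and 6.88% of the 358, 1635, 1379 and 486 nuclei deep enough, control 1 remaining highest.

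**Figure D2:**
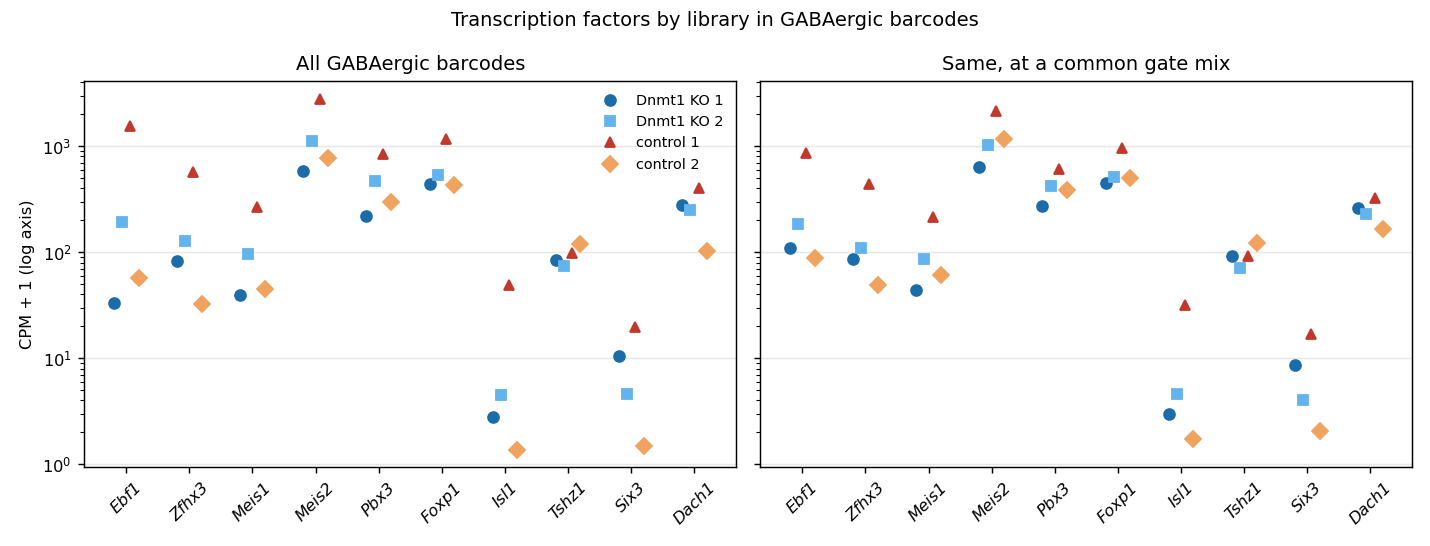
Level of each factor (CPM + 1, log axis) in GABAergic nuclei of the 4 libraries, as measured (left) and recomputed at a common mix of gates (right). Red triangles, control 1, are highest for 9 of the 10 genes on the left, while the orange diamonds, control 2, lie between the blue Dnmt1 KO points for Ebf1, Meis1, Meis2 and Pbx3, above both for Tshz1 and below both for the other genes.

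A common gate mix was used to hold the shares of the gates equal: each library's level was recomputed from its 5 exclusive gates (*Lhx6*, *Adarb2*, *Ebf1*, more than 1, none) with the mean share of transcripts of each gate over the 4 libraries. It does not equal the cells within a gate, which differed between libraries in the *Ebf1* gate above and in no gate below. The part of this in the recomputed levels was not tested. *Ebf1* then stood at 108, 182, 854 and 88.2 CPM, *Zfhx3* at 86.1, 109, 438 and 47.6 CPM and *Meis2* at 635, 1031, 2148 and 1158 CPM. Control 1 remained highest for these genes. The *Ebf1* value of KO 1 came largely from its 2 *Ebf1*-gated nuclei, and it was 37.1 CPM with gates at 1 transcript and 4.55 CPM with gates set after thinning. *Isl1* stood at 1.96, 3.65, 30.6 and 0.732 CPM and *Foxp1* at 449, 507, 952 and 499 CPM. Equal shares of the gates left control 1 above the next library for these 5 genes. *Ebf1* itself sets a gate, so that its value at the common mix is partly fixed by the gates, and with a striatal gate that uses no member it stood at 24.9, 204, 1189 and 54.2 CPM. *Tshz1*, at 91.5, 70.4, 91.7 and 120 CPM, and *Meis2* were the 2 members whose libraries did not overlap between genotypes, both lower in *Dnmt1* KO, against 24.8% of 15243 genes lower and 14.3% higher without overlap. For *Tshz1* the nearest KO and control libraries differed by less than 1 CPM. As measured, *Tshz1* alone did not overlap, against 21.8% of genes lower and 15.7% higher.

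Taking out nuclei with *Ebf1* or striatal markers, an alternative chosen after seeing the data, left 341, 1492, 1060 and 415 GABAergic nuclei. *Foxp1* was then at 435, 367, 420 and 377 CPM, with control 1 inside the range of the others. *Meis2* was at 545, 912, 2320 and 764 CPM and *Zfhx3* at 80.1, 39.0, 267 and 17.5 CPM. Control 1 was thus still highest for *Meis2* and *Zfhx3*, as it was for *Meis1* at 29.8, 91.8, 245 and 50.3 CPM and *Pbx3* at 193, 505, 888 and 335 CPM.

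No member passed the genotype test in any population. In GABAergic nuclei, edgeR's quasi-likelihood test on the summed counts called 0 of 15496 genes (0% called) after Benjamini-Hochberg adjustment, with 899 genes at an unadjusted p under 0.05 and 39 called by DESeq2, none of them a member. The log2 fold change, *Dnmt1* KO minus control, was -1.17 (SE 0.87) for *Meis1*, -1.04 (SE 0.64) for *Meis2*, -0.70 (SE 0.46) for *Foxp1* and -0.68 (SE 0.58) for *Pbx3*. It was -3.06 (SE 1.68) for *Isl1*, -0.70 (SE 1.32) for *Six3* and 0.10 (SE 0.60) for *Dach1*. Of the 8 members with a p, whose median was -0.70 against -0.01 over all genes, *Tshz1* alone had an unadjusted p under 0.05 (log2 fold change -0.46, SE 0.15, unadjusted p = 0.0270, adjusted p = 0.828 by edgeR). The negative values of 6 members, *Tshz1* not among them, rested on 1 library: without control 1 the log2 fold change was 0.62 for *Meis1*, 0.14 for *Meis2*, 0.17 for *Foxp1*, 0.24 for *Pbx3*, 2.85 for *Isl1* and 3.68 for *Six3*. Control 2, of batch 2, was then the sole control, so that genotype and batch could not be told apart. It held 4 *Isl1* and 5 *Six3* transcripts. Without control 2, and thus within batch 1, the median over the 10 members, *Ebf1* and *Zfhx3* included, was -1.64. The labels do not say whether the brains came from separate litters, so that these p-values measure the spread between these libraries.

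The same test called 0 genes (0%) in *Lhx6*-gated, *Adarb2*-gated, *Ebf1*-gated and excitatory nuclei, of 12839, 11404, 5039 and 19241 tested. At an unadjusted p under 0.05 there were 712, 409, 122 and 1119 genes, and DESeq2 called 4, 9, 0 and 46, with 0 members in each. Of the 10 members, 8, 9, 9 and 8 passed the filter on low counts in these populations. *Isl1* and *Six3* did not pass in *Lhx6*-gated and excitatory nuclei, *Isl1* not in *Adarb2*-gated and *Six3* not in *Ebf1*-gated nuclei. In *Adarb2*-gated nuclei *Tshz1* was again the member with an unadjusted p under 0.05, at a log2 fold change of -0.48 (SE 0.17, adjusted p = 1.00 by edgeR). The genotype difference between the *Adarb2* and *Lhx6* gates was tested as an interaction, which called 2 of 13270 genes (0.0151%) and none of the 8 members in it.

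*Lhx6*-gated nuclei, of the medial eminence lineage that includes the SST cells in which Cre acts, carried little *Isl1*, *Six3* and *Zfhx3* in every library. GABAergic nuclei with at least 2 *Sst* transcripts were far fewer than the nuclei of this gate, and their overlap with it was not counted. Levels in this gate are therefore not those of the Cre-recombined cells alone. *Isl1* was at 0, 0.205, 0.503 and 0 CPM, where a count of 0 allows up to 1.03 CPM in KO 1 and 0.416 CPM in control 2 (3 counts). *Six3* was at 0, 0, 1.51 and 0 CPM, and *Zfhx3* at 7.18, 12.8, 26.8 and 6.38 CPM. *Meis2*, at 312, 404, 373 and 408 CPM, and *Foxp1*, at 324, 304, 343 and 375 CPM, were within a range of 1.31-fold and 1.23-fold over the 4 libraries, so the excess of control 1 seen for both in all GABAergic nuclei was not found here. *Meis1* was at 12.3, 24.2, 52.8 and 21.5 CPM and *Dach1* at 73.2, 82.5, 164 and 48.1 CPM, both still highest in control 1. Of the 7 members with at least 40 transcripts in this gate, *Ebf1* aside, 4 were highest in control 1, *Zfhx3* among them, against 28.2% of genes. Striatal markers other than the members were carried by 9.91%, 8.05%, 9.13% and 17.0% of these nuclei, the largest share in control 2. Median transcripts per nucleus of this gate were 11849, 10290, 10716 and 17115, also largest in control 2. The part of depth in these shares was not tested.

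*Adarb2*-gated nuclei carried more of the TALE factors, and again most in control 1. *Meis2* was at 1065, 1651, 4157 and 1430 CPM, *Meis1* at 102, 211, 420 and 107 CPM and *Zfhx3* at 134, 158, 445 and 71.0 CPM. *Pbx3* was closer between libraries, at 899, 1435, 1756 and 1328 CPM, and *Foxp1* closer still, at 567, 478, 566 and 451 CPM. Leaving aside *Ebf1*, which the gate caps, and *Isl1* and *Six3*, which reached 40 transcripts only through control 1, 4 of 7 members were highest in control 1, *Zfhx3* among them, against 30.5% of genes. Striatal markers other than the members were carried by 0 of 39, 28 of 429, 57 of 403 and 7 of 86 nuclei of this gate, the largest share in control 1, and of the 209 control 1 nuclei with at least 2 *Ebf1* transcripts 143 also passed 2 *Adarb2* transcripts. The part of such nuclei in the level of control 1 in this gate was not tested. *Adarb2* itself was at 20683, 16587, 8898 and 23454 CPM in this gate, lowest in control 1. With the gate raised to 20 *Adarb2* transcripts, chosen after seeing the data, *Meis2* was at 1055, 1166, 3545 and 1214 CPM and *Meis1* at 116, 158, 418 and 106 CPM in 30, 323, 249 and 77 nuclei. Control 1 therefore remained highest for both.

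In the *Ebf1* gate the libraries were far apart. *Zfhx3* was at 589, 231, 2544 and 52.4 CPM and *Pbx3* at 294, 799, 1933 and 1205 CPM. *Meis2* was at 1051, 1499, 6517 and 8199 CPM, where the last value came from 2 nuclei. *Isl1*, with 1, 0, 146 and 0 transcripts, was at 42.0, 0, 203 and 0 CPM, so that it reached the total count of the filter through control 1 alone and its genotype contrast is not read here. *Dach1*, at 420, 1218, 573 and 550 CPM, was highest in KO 2. *Tshz1* was at 168, 58.1, 18.1 and 131 CPM, lowest in control 1, so that the members shared no order of libraries in this gate. At an unadjusted p under 0.05, genotype log2 fold changes here were -2.15 (SE 0.83) for *Meis1* and -2.51 (SE 1.00) for *Meis2*, neither called (adjusted p = 1.00 by edgeR), and they compare mainly 37 nuclei of KO 2, of which 16 had vessel or meningeal markers, with 60 of control 1.

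GABAergic nuclei of no gate (110, 426, 372 and 40) held 45 of 47, 51 of 84, 190 of 375 and 4 of 5 *Six3* transcripts of GABAergic nuclei. *Six3* was at 37.5, 9.64, 50.3 and 5.10 CPM, in 21.8%, 4.69%, 20.2% and 2.50% of these nuclei. KO 1 and control 1 were high and the other 2 libraries low. These nuclei also differed between libraries in other markers. At least 2 transcripts of *Zic1*, *Zic2* and *Zic4* were found in 36.4%, 2.58%, 2.42% and 7.50% of them, of endothelial, mural or meningeal markers in 18.2%, 4.23%, 3.23% and 20%, of *Neurod2* and *Neurod6* in 10%, 16.2%, 10.8% and 45% and of striatal markers in 11.8%, 15.5%, 29.3% and 17.5%. Median transcripts per nucleus were 9861.5, 9393.5, 8468.5 and 17931, largest in control 2. The part of depth in these shares, and of such nuclei in the levels of this population, was not tested. *Dach1* was at 810, 360, 431 and 517 CPM, highest in KO 1, while *Foxp1*, at 663, 831, 2061 and 902 CPM, and *Zfhx3*, at 248, 300, 1267 and 110 CPM, were highest in control 1.

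Excitatory nuclei expressed *Meis2* and *Foxp1* about equally in all libraries. *Meis2* was at 1537, 1646, 1743 and 1645 CPM and found in 90.9% to 93.8% of nuclei, and *Foxp1* was at 893, 880, 909 and 994 CPM and found in 94.4% to 97.9%. The highest and lowest libraries differed by 1.13-fold for each. The excess of control 1 seen in GABAergic nuclei was thus not of that size here, although *Meis2* and *Pbx3* kept the same order of libraries, and 3 of 8 members with at least 40 transcripts were highest in control 1, against 22.1% of genes. *Pbx3*, at 27.7, 81.7, 88.3 and 66.4 CPM, and *Meis1*, at 7.13, 23.2, 22.8 and 17.9 CPM, were lowest in KO 1. *Dach1* was highest there, at 210, 131, 135 and 85.1 CPM.

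**Figure D3:**
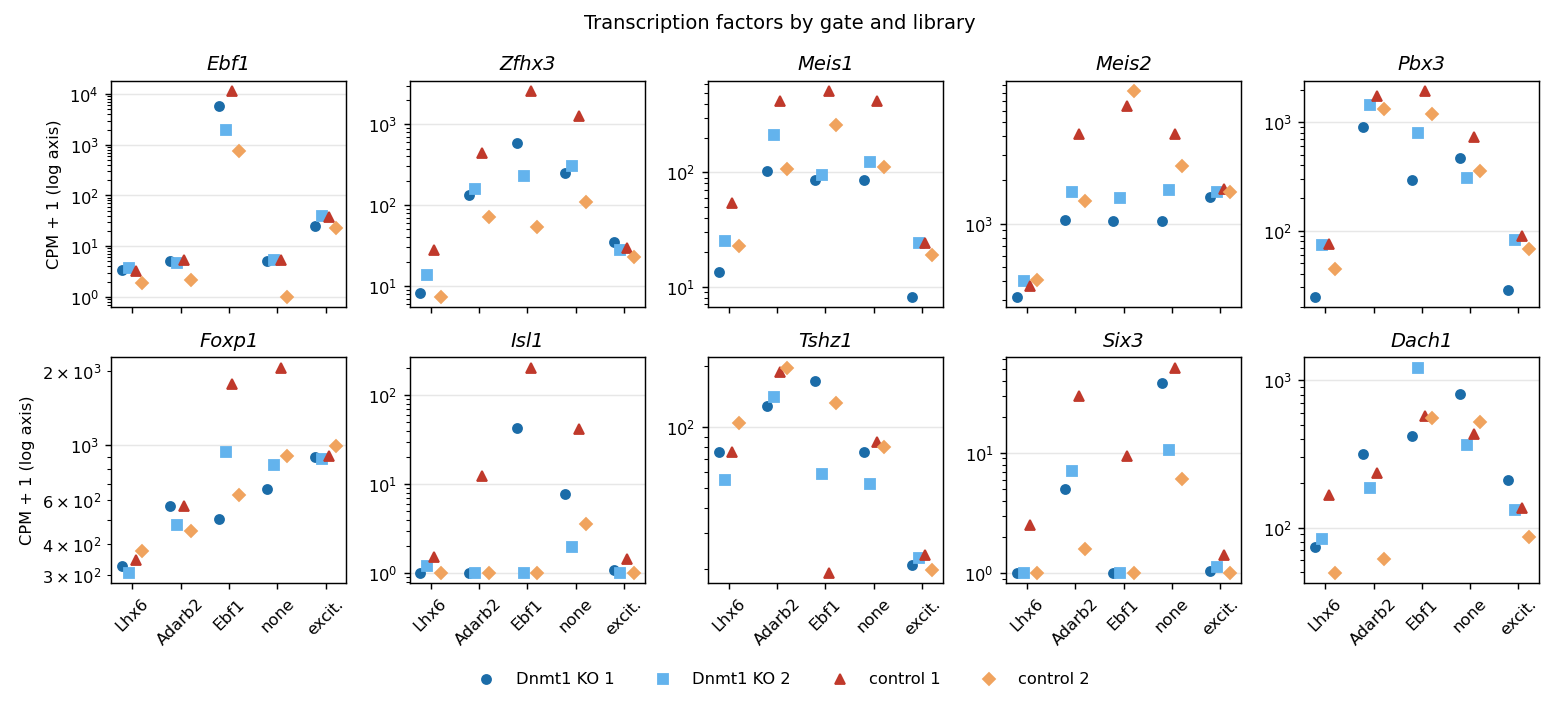
Level of each factor (CPM + 1, log axis) in nuclei of the Lhx6, Adarb2 and Ebf1 gates, of no gate, and in excitatory nuclei, with a symbol for each library. Meis2 and Foxp1 lie close together over libraries in the Lhx6 gate and in excitatory nuclei, and control 1 (red triangles) lies apart in the Adarb2 gate for Meis1, Meis2 and Zfhx3.

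The gates differed in their levels of most members. From *Lhx6*-gated to *Adarb2*-gated nuclei, with the library as a block, all 7 members tested rose (12.9% of 12210 genes called, 7.6% higher): *Isl1* and *Six3* did not pass the filter and *Ebf1* was a gate gene. *Pbx3* rose by 4.66 on the log2 scale (SE 0.16, adjusted p = 2.38e-06 by edgeR), *Zfhx3* by 3.76 (SE 0.13), *Meis1* by 2.81 (SE 0.14) and *Meis2* by 2.21 (SE 0.26). Each of these was higher in all 4 libraries. *Tshz1* rose by 1.07 (SE 0.12), *Dach1* by 0.95 (SE 0.24, adjusted p = 0.0350 by edgeR) and *Foxp1* by 0.55 (SE 0.10, adjusted p = 0.00637 by edgeR). With the *Adarb2* gate at 20, *Foxp1*, at 0.21, and *Dach1*, at 0.27, were no longer called.

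From *Lhx6*-gated to *Ebf1*-gated nuclei, 5 of 7 members tested rose (4.26% of 9262 genes called, 1.95% higher). *Zfhx3* rose by 4.87 on the log2 scale (SE 0.62), *Pbx3* by 3.79 (SE 0.50), *Meis2* by 2.65 (SE 0.63, adjusted p = 0.00963 by edgeR), *Meis1* by 2.56 (SE 0.43) and *Dach1* by 2.55 (SE 0.47). *Foxp1* differed by 1.00 (SE 0.50) and *Tshz1* by -0.63 (SE 0.45), neither called. The *Meis2* call was lost without KO 2 or without control 1, the libraries with 37 and 60 nuclei in this gate. Against *Adarb2*-gated nuclei, 0 of 7 members were called in the *Ebf1* gate (0.477% of 6706 genes called, 0.0298% higher, 419 at an unadjusted p under 0.05). The largest differences were 1.71 for *Dach1* (SE 0.50, adjusted p = 0.316 by edgeR) and -1.68 for *Tshz1* (SE 0.52, adjusted p = 0.383 by edgeR), and DESeq2 called 132 genes with *Dach1* among them.

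From excitatory to GABAergic nuclei, 5 of 9 members tested were called higher, *Isl1* and *Six3* among them (27.2% of 17076 genes called, 13.4% higher). *Isl1* (6.63 on the log2 scale, SE 0.43) and *Six3* (5.55, SE 0.38) had at most 0.459 and 0.404 CPM in excitatory nuclei. They met the filter through the GABAergic sums, so that their direction was fixed in advance and is not read here. Their fitted values also depend on the prior count. Of the other members, *Pbx3* rose by 2.65 on the log2 scale (SE 0.18), *Meis1* by 2.26 (SE 0.35) and *Tshz1* by 2.07 (SE 0.15). *Meis2*, at -0.67, and *Foxp1*, at -0.72, were not called, nor were *Zfhx3*, at 2.01 (adjusted p = 0.0588 by edgeR), and *Dach1*, at 0.72 (adjusted p = 0.0502 by edgeR).

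**Figure D4:**
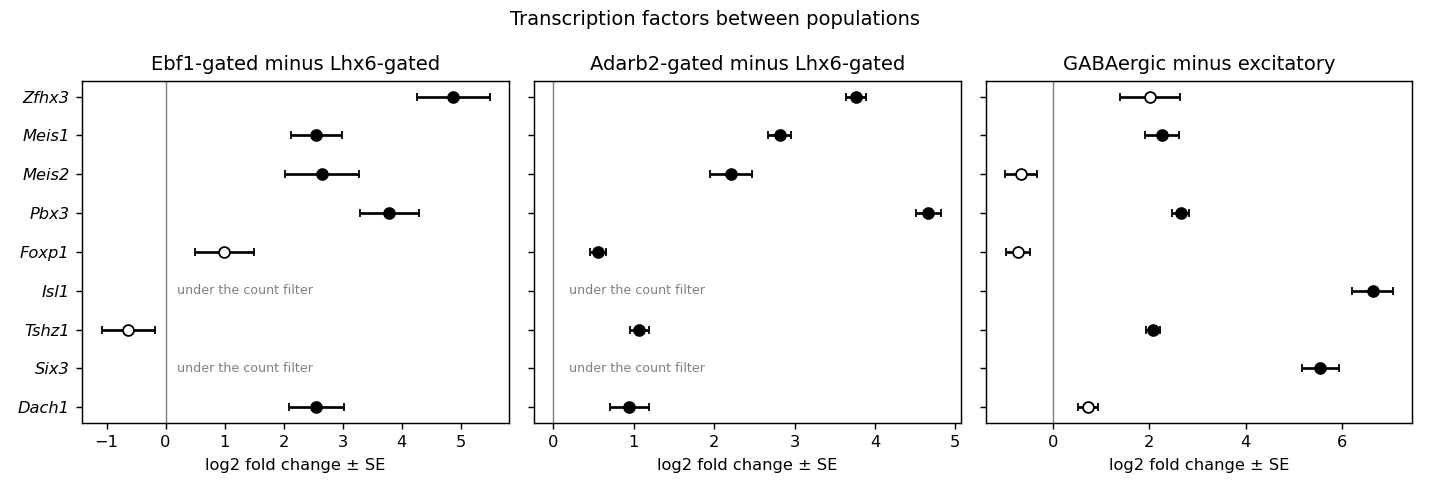
Log2 fold change of each factor between populations (horizontal axis, bars SE), with filled points for adjusted p under 0.05 and open points for the rest. Zfhx3 and Pbx3 rose most in both gates against the Lhx6 gate, and Foxp1 stayed between -0.72 and 1.00 in all panels.

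Related genes were read from 4 lists: 18 striatal projection neuron genes, 13 genes of LGE progenitors and the olfactory bulb lineage, 8 TALE and partner homeobox genes and 12 paralogues of the members. None of them was called for genotype in any population, and in GABAergic nuclei the median log2 fold change was -1.21 over the 15 striatal genes tested, -0.24 over 11 LGE genes, 0.11 over 8 TALE genes and -0.47 over 10 paralogues, against -0.01 over all genes. The 18 striatal genes summed to 1202, 1358, 3055 and 1335 CPM in GABAergic nuclei, so that control 2 was close to the KO libraries and control 1 apart. From *Lhx6*-gated to *Adarb2*-gated nuclei, 7 of 11 LGE genes rose and 0 fell, led by *Sp8*, a zinc finger factor of olfactory bulb and caudal interneurons (5.92, SE 0.40), and *Pax6* (2.19, SE 0.20), with *Sall3*, *Vax1* and *Dlx6* at 1.65, 1.55 and 1.14. Of 9 striatal genes, *Foxp2* rose (2.09, SE 0.39) while *Gnal*, a G protein subunit, and *Sp9* fell, by 0.65 and 0.64 on the log2 scale. Of 7 TALE genes *Pknox2* fell by 0.80 on the log2 scale, and none rose. Over all genes, 12.9% were called in this contrast. The paralogues of the members split: *Zfhx4* (2.14), *Foxp2*, *Dach2* (1.88) and *Foxp4* (1.36) rose, while *Tshz3* fell by 2.28 on the log2 scale, opposite to *Tshz1*.

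From *Lhx6*-gated to *Ebf1*-gated nuclei, *Foxp2* rose (2.90, SE 0.56) and *Sp9*, a factor that *Lhx6*-lineage interneurons also express, fell by 2.74 on the log2 scale, out of 8 striatal genes. Of 8 LGE genes, *Tshz2* (2.13), *Pax6* (1.98) and *Sall3* (1.93) rose and *Dlx1*, a homeobox gene of most GABAergic lineages, fell by 2.00 on the log2 scale. *Zfhx4* rose (3.44, SE 0.48) and *Tshz3* fell by 1.68 on the log2 scale among 8 paralogues, with *Foxp2* and *Tshz2* also higher, and 0 of 6 TALE genes were called. Over all genes, 4.26% were called in this contrast. Against *Adarb2*-gated nuclei, where 0.477% of all genes were called, *Dlx1* fell by 2.91 on the log2 scale and no other gene of the lists was called. From excitatory to GABAergic nuclei, 10 of 11 LGE genes rose, *Dlx6*, *Dlx5*, *Vax1*, *Dlx1* and *Dlx2* by 5.65 to 6.66. Of 13 striatal genes 5 rose and 5 fell, the former *Sp9* (6.85), *Ikzf1* (4.60), *Rarb* (3.56), *Drd2* (3.08) and the adenosine receptor *Adora2a* (1.93). Of 8 TALE genes, 2 rose and 2 fell. *Pknox2* and *Pknox1* rose by 1.32 and 0.49, and *Pbx4*, among those that fell, by 0.22 on the log2 scale. Of 10 paralogues, 1 rose (*Dach2*, 1.53) and 2 fell (*Foxp4* and *Zfhx2*, by 1.17 and 0.44 on the log2 scale). Over all genes, 27.2% were called in this contrast.

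The members were detected together in nuclei in ways that the sums do not show. In control 1, 269 GABAergic nuclei had an *Ebf1* transcript and 155 of them also had *Isl1*, where the product of both shares gives 40.1 nuclei. In KO 2, 18 of 160 *Ebf1* nuclei had *Isl1*, where that product gives 1.84, and these were 18 of the 20 *Isl1* nuclei. *Ebf1* and *Isl1*, both direct-pathway factors, were thus found together more often than that product in these libraries, while KO 1 and control 2 each had 1 nucleus with both, out of 17 and 16 *Ebf1* nuclei. *Six3* was not among them: in control 1 14 nuclei had *Ebf1* and *Six3*, where the product gives 28.8, and 20 had *Isl1* and *Six3*, where it gives 23.7. *Six3* was found instead with *Drd2*, in 46 of its 159 nuclei of control 1 (product 11.6) and 17 of its 38 nuclei of KO 2 (product 0.917), while 5 nuclei of control 1 had *Isl1* and *Drd2* (product 16.1). *Zfhx3* was found with both, in 209 of 221 *Isl1* nuclei (product 101) and 149 of 159 *Six3* nuclei (product 72.8) of control 1. Deeper nuclei detect more genes of any kind, which raises such overlaps.

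KO 1 was different. Of its 25 *Six3* nuclei, 21 had *Zic1*, a factor of the septum, where the product gives 3.22. With 5 *Drd2* nuclei in KO 1, an overlap of *Six3* and *Drd2* could not be judged there. In KO 2 and control 1 the corresponding counts with *Zic1* were 1 of 38 and 9 of 159. The 3 septal markers *Zic1*, *Zic2* and *Zic4* summed to 113, 13.6, 11.9 and 5.94 CPM in GABAergic nuclei, highest in KO 1. Most *Six3* nuclei of KO 1 thus had *Zic1* and most of those of control 1 did not, although the *Six3* levels of both libraries were within 2-fold.

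Most nuclei with *Ebf1* were not GABAergic. Of the 343, 884, 492 and 209 nuclei with at least 2 *Ebf1* transcripts, 0.875%, 9.95%, 42.5% and 3.83% were GABAergic. Excitatory nuclei made up 32.1%, 19.1%, 20.9% and 48.8% of them, and nuclei with endothelial, mural or meningeal markers 30.6%, 51.5%, 26.8% and 40.7%. Those with at least 2 *Trp73* transcripts made up 15.5%, 8.60%, 4.67% and 12.4%, and these classes overlap. In nuclei with endothelial markers *Ebf1* was at 1379, 1632, 1724 and 959 CPM, and 53.8%, 64.4%, 66.9% and 40.4% of these nuclei had at least 2 transcripts of it. The libraries were within 2-fold of each other there. In nuclei with meningeal markers it was at 2808, 819, 1608 and 2608 CPM and in those with mural markers at 364, 585, 363 and 300 CPM. Control 1 was thus highest in nuclei with endothelial markers too, though close to KO 2, and was not highest in those with mural or meningeal markers.

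**Figure D5:**
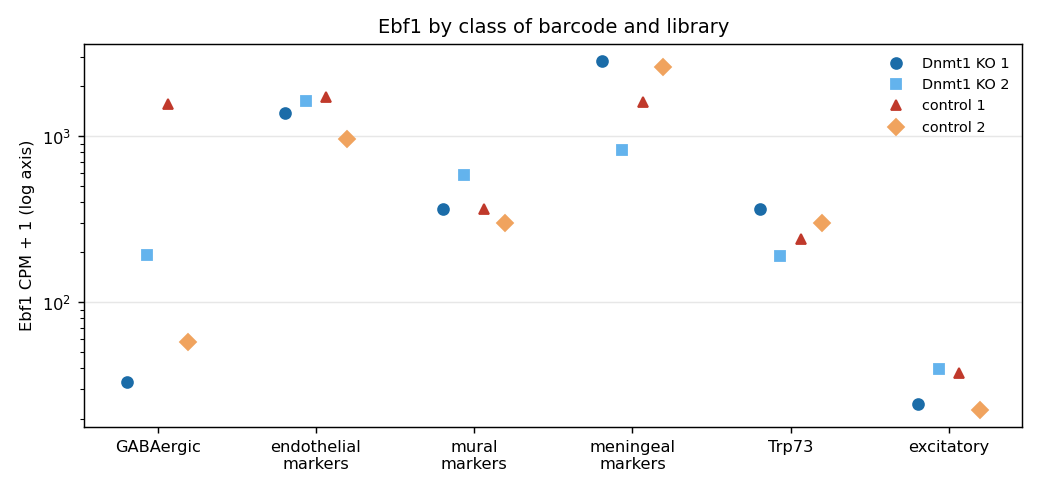
Level of Ebf1 (CPM + 1, log axis) in 6 classes of nuclei in each library, the classes set by marker genes and not exclusive of each other. Libraries lie within 2-fold in nuclei with endothelial markers, and in GABAergic nuclei control 1 lies above the rest.

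The genes most like *Ebf1* over the 20 sums of 4 libraries and 5 populations were, of 9888 genes at 20 CPM or more, *Bmt2*, *Impa1*, *Rpf1*, *Pcmtd2* and *Cab39l*, with Pearson's r on log2(CPM + 1) of 0.912, 0.834, 0.833, 0.828 and 0.818. The points share libraries and gates, and without the 4 *Ebf1*-gated sums, 2 of which are 2 nuclei each, r was 0.542, 0.669, 0.575, 0.456 and 0.420. No member was among them. The closest was *Dach1*, at rank 556 with r = 0.505, and without the *Ebf1*-gated sums its r was -0.06 and that of *Foxp1*, then the closest, 0.446. In the *Lhx6*, *Adarb2* and no-gate sums the gates hold *Ebf1* under 2 transcripts per nucleus, and the *Ebf1* gate requires at least 2. The likeness is therefore partly fixed by the gates, also without the *Ebf1*-gated sums. No conclusion about the members or the 5 genes is drawn from it.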

How the data were processed

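Nuclei of frozen medial neocortex were extracted on a sucrose gradient, fixed and barcoded by split-and-pool (Evercode WT). The deposited values are whole-number counts of transcripts per barcode and gene, which the authors made with Trailmaker on GRCm39, without filtering barcodes. The annotation release, strand setting and handling of introns are not given in the sources used here. The submitters' processing notes name R 4.4.1 and Seurat 5.0.1.9001. Here, 29656 of 1127729 barcodes with 1500 to 60000 transcripts were kept (the study states this range in reads, tried as an alternative), and no mitochondrial filter was applied. Doublets were called with scrublet in scanpy 1.11.5 and kept, at 2.87%, 5.49%, 4.40% and 7.73% of nuclei. GABAergic sums held 4992812, 23010919, 19978117 and 10599350 transcripts.

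Summed counts were tested with edgeR 4.0.16 (TMM, filterByExpr, quasi-likelihood, Benjamini-Hochberg over all genes, adjusted p under 0.05) in R 4.3.3, with DESeq2 1.42.0 as an alternative. The scripts were tested on simulated data. Gate genes were left out of fits between gates. The members, gates, lists and markers were chosen with earlier results of these data known. Named genes were the members, gate genes, up to 5 called genes of each list with the largest difference, and the 5 genes most like *Ebf1*. No transcripts from the floxed part of *Dnmt1* were counted apart. Some results for genes of the lists are not reported here.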

Additional observations from a re-analysis of the deposited data

Results flagged for a closer look

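From *Adarb2*-gated to *Ebf1*-gated nuclei, 2 of the 7 members with at least 3 transcripts in either gate of every library went in opposite directions in the 2 genotypes, as did 9.17% of 9325 genes. No member did so in the other 3 contrasts of populations, where 5.96% to 8.25% of genes did. The difference between genotypes was not tested. For *Meis1*, log2(CPM + 1) in *Ebf1*-gated minus *Adarb2*-gated nuclei was -0.27 in KO 1, -1.17 in KO 2, 0.29 in control 1 and 1.28 in control 2. For *Meis2* it was -0.019, -0.14, 0.65 and 2.52. In KO 1 and control 2 the *Ebf1*-gated value came from 2 nuclei each.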

How the results depend on the processing

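Of the log2 fold changes of members, 468 kept their direction and side of the threshold over the alternatives, 21 became called, 6 lost a call and 17 changed sign. Of the counts and shares, 117 stayed and 21 moved, as did 109 and 11 of the CPM values. A CPM value counted as staying if it moved by less than the SD of the 2 libraries of its genotype. In controls that SD was 1055 CPM for *Ebf1* and 1436 CPM for *Meis2*. The difference in share was held to the larger SD of a genotype, 2.58 percentage points. Such limits are wide, so that these tallies say little about stability. *Pbx3* of control 2 was at 458 CPM with the mapped-read filter, and *Ebf1* of KO 1 at 4.83 CPM with gates set after thinning. Where no cause is named, the cause was not tested. The difference in the *Ebf1*-gated share, -0.90 percentage points, was -4.92 with *Lhx6* and *Adarb2* disregarded. At the common gate mix, 2 members did not overlap, 1 with gates at 1 transcript (23.3% of genes lower), at 3 transcripts (24.5%), without scrublet calls (24.4%) or with gates set after thinning (24.5%), 3 with the mapped-read filter (23.5%), and 2 to 9 with a library left out, 2 without KO 1 (41.4%). Without KO 2 there were 4, all lower in *Dnmt1* KO (41.8% of genes lower), without control 1 5 higher and 3 lower (27.9% and 42.0% of genes), 8 in all, and without control 2 9 lower (38.4%). Without the low-count filter the genotype test called 7 members in GABAergic (604 of 29341 genes, 2.06%), 1 in *Lhx6*-gated (153 genes, 0.595%) and 2 in *Adarb2*-gated nuclei (181 genes, 0.776%), the 7 including *Ebf1* and *Zfhx3*, whose contrast led to the choice and is a description, and the 2 being *Meis2* and *Isl1*, which in that gate had transcripts in control 1 alone. Batch as a covariate gave 1 member, again *Zfhx3*, and 24 genes (0.21%) in *Adarb2*-gated nuclei. With a library left out, 0 to 3 members were called there (1 without control 1, where 0.351% of genes were, and 3 without control 2, where 0.301% were: *Meis2*, *Zfhx3*, again a description, and *Isl1*, again at 0 in both KO libraries) and 0 to 2 in excitatory nuclei, the 2 being *Meis1* and *Pbx3* without KO 2, when 240 genes (1.24%) were called. Without KO 1, 29 genes were called in *Lhx6*-gated and 42 in *Ebf1*-gated nuclei.

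Over the left-out libraries, GABAergic genotype log2 fold changes ran from -1.99 to 0.62 for *Meis1*, -1.67 to 0.14 for *Meis2*, -1.23 to 0.17 for *Foxp1*, -1.35 to 0.24 for *Pbx3*, -1.60 to 3.68 for *Six3*, -4.01 to 2.85 for *Isl1* and -0.57 to 1.38 for *Dach1*, the first 6 changing sign without control 1 and *Dach1* without control 2. *Foxp1* was at 0.035 without nuclei with *Ebf1* or striatal markers, and *Dach1* at -0.57 with batch as a covariate and -0.10 without scrublet calls. No label pairs samples with the same replicate number, and r was 0.02 between their deviations over 15243 genes. The controls also differ in batch and sublibraries, so that this r cannot show whether a litter or day was shared. With the replicate block, 0 members were called in any population, genes called were 0, 0, 3, 2 and 0, and *Six3* was at 0.38 in GABAergic nuclei.

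*Ebf1*-gated against *Lhx6*-gated nuclei gave 132 to 998 genes, 132 with gates at 1 transcript, 174 without KO 2 and 998 without the filter, against 395. *Tshz1* ran from -0.90 to 0.050 over left-out libraries there. Against *Adarb2*-gated nuclei the 32 genes became 0 without KO 1 or with gates at 1 transcript, 428 (1.79%) without the filter and 132 (1.97%) with DESeq2, and members called 2 without the filter, 1 with DESeq2 and 1 with *Lhx6* and *Adarb2* disregarded (0.689% of genes). *Meis1* was at 0.0067 without TMM and 0.48 with gates at 1 transcript, and ran from -0.52 to 0.25 over left-out libraries. *Meis2* was at -0.0075 with *Lhx6* and *Adarb2* disregarded and ran from -0.022 to 0.76. *Adarb2*-gated against *Lhx6*-gated nuclei gave 918 genes without KO 2, when *Dach1* lost its call, as it did with gates at 3 transcripts. GABAergic against excitatory nuclei gave 8 members without the filter (14.1% of genes) and with DESeq2 (27.8%), and 5 to 8 over left-out libraries, 8 without control 1 (21.4%). They gave 2897 genes without KO 2 and 2946 without control 2, against 4640.

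Leaving out mixed barcodes (GABAergic nuclei with at least 2 transcripts of *Neurod2* and *Neurod6*) was not run for the *Ebf1* gate, where control 2 kept 0 nuclei, nor were other gate thresholds for populations they do not define. With 2 libraries a genotype, 2 nuclei in 2 *Ebf1* gates and batch 2 holding a single library, genotype within batch 2 cannot be given.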
